A study of Mus musculus with 12 samples.

Results

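A set of 10 genes through which liver cells sense insulin and glucose was followed in livers of mice with concanavalin A (Con A) hepatitis. They are the alpha-arrestins Arrdc3, Arrdc4 and Txnip, the glucose-sensing transcription factor Mlxipl, the insulin receptor Insr with its adaptors Irs1 and Irs2, the transcription factors Foxo1 and Foxo3, and the kinase Pdk4. Arrdc3 was picked because its value rose with stromal cells, so its values are described without a test. The other 9 were chosen by name, with earlier results of these data known. All 10 genes are in the deposited table of 11289 genes. Liver RNA was sequenced from 12 male C57BL/6J mice, 4 in each group, aged 8 to 10 weeks by the labels. The control group is labelled only as control, without Con A, and the labels give no injection for it. The Con A + PBS group received 15 mg/kg of Con A, a lectin from jack beans that drives T-cell activation, by the tail vein and PBS 30 min later, and the Con A + hWJ-MSCs group received the same Con A and then an intravenous dose of hWJ-MSCs, human mesenchymal stromal cells from Wharton's jelly, the gel of the umbilical cord. Livers were taken 24 h later. The labels and the paper's text differ on how many cells each mouse received and on the age of the mice, and the paper's are the lower. Each mouse is a separate animal, and the feeding state of the mice is not given in the sources used here.

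Insulin binds its receptor, which phosphorylates Irs1 and Irs2 and through them activates the kinase Akt. Akt holds FoxO proteins out of the nucleus, so that in fasting FoxO1 turns on genes such as Irs2, Pdk4 and Igfbp1, and insulin turns them off. Glucose acts through ChREBP, the product of Mlxipl, and its relative MondoA, which pair with Mlx on carbohydrate response elements and drive Txnip, Arrdc4 and the enzymes of glycolysis and fat synthesis. The phosphorylation steps act on proteins, which were not measured.

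The deposited values are whole numbers that the authors had already normalized between mice, without a unit, so only the same gene can be compared between mice. Their totals ran from 17649654 to 17657159 and their median was 352 in each mouse, and the sequencing depth behind them is unknown. Changes are log2 fold changes of value + 1 with their standard error, from 1 limma fit of all 12 mice. A gene was called, and is said to have risen or fallen, at a Benjamini-Hochberg adjusted p below 0.05 over the whole table and a fold change above 1.5. The tissue showed the markers of liver, with 9 of 10 hepatocyte markers in the table and none at 0 in any mouse. The sum of the hepatocyte markers was 1033755 to 1202931 in controls, 1011129 to 1070631 after Con A and 1073203 to 1098472 with hWJ-MSCs, and their mean log2 value was 16.22 to 16.41, 15.77 to 15.94 and 15.90 to 16.01. The sum of 8 leukocyte markers, all in the table, was 2451 to 2949, 3617 to 5147 and 2951 to 4686 in the same order, and that of 7 endothelial markers, again all in the table, was 2309 to 3356, 1119 to 1570 and 1248 to 1550. The sum of 10 macrophage and monocyte markers was 4447 to 7238, 5863 to 7114 and 2979 to 4367, while their mean log2 value was 8.08 to 8.82, 6.89 to 7.58 and 6.55 to 7.69, so the Con A groups stood apart in the sum and overlapped in the mean log2 value. The sum of 6 stellate cell markers was 3962 to 6534, 5035 to 5912 and 3464 to 4722, and their mean log2 value was 8.21 to 8.87, 7.48 to 7.73 and 7.50 to 8.35, again apart in the sum and overlapping in the other measure. Both lists are wholly in the table with no gene at 0. The sum of neutrophil markers, 5 of 6 in the table with Mmp8 and Retnlg at 0 in some mice, was 58 to 139, 828 to 1799 and 795 to 1656, and that of the 2 of 7 T cell markers in the table, Cd8a being at 0 in some mice, was 15 to 37, 114 to 236 and 136 to 162. In whole liver, fewer cells of a type and less RNA per cell cannot be told apart, and the part of these shifts in the results was not tested.

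Between Con A + PBS and control, 6 of the 9 tested genes were called, against 38.8% of all genes. Arrdc4, Irs2 and Pdk4 rose and Mlxipl, Irs1 and Foxo3 fell, where 19.5% of all genes rose and 19.2% fell. Between the Con A groups, that is with hWJ-MSCs against PBS, 3 of the 9 were called, against 8.58% of all genes, and all 3 fell, namely Arrdc4, Irs2 and Pdk4, where 4.2% of all genes rose and 4.38% fell. Between Con A + hWJ-MSCs and control, 3 of the 9 were called, against 26.7% of all genes, and all 3 fell, namely Mlxipl, Irs1 and Foxo3, where 13.6% of all genes rose and 13.1% fell. The groups did not overlap for 5 of the 9 genes after Con A, 3 higher and 2 lower, against 50.4% of all genes, 27.1% higher and 23.4% lower. Between the Con A groups they did not overlap for 3, all lower, against 23.5% of all genes, 11.9% higher and 11.6% lower, and between hWJ-MSCs and control for 3, all lower, against 37.9%, 20.6% higher and 17.3% lower. The median log2 fold change over the 9 genes was 0.35, −0.54 and −0.72 in these comparisons, and over all genes it was 0.05, 0.00 and 0.04. The first and second comparisons share the Con A + PBS mice, so a high Con A + PBS group alone gives a rise in one and a fall in the other.

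**Figure D1:**
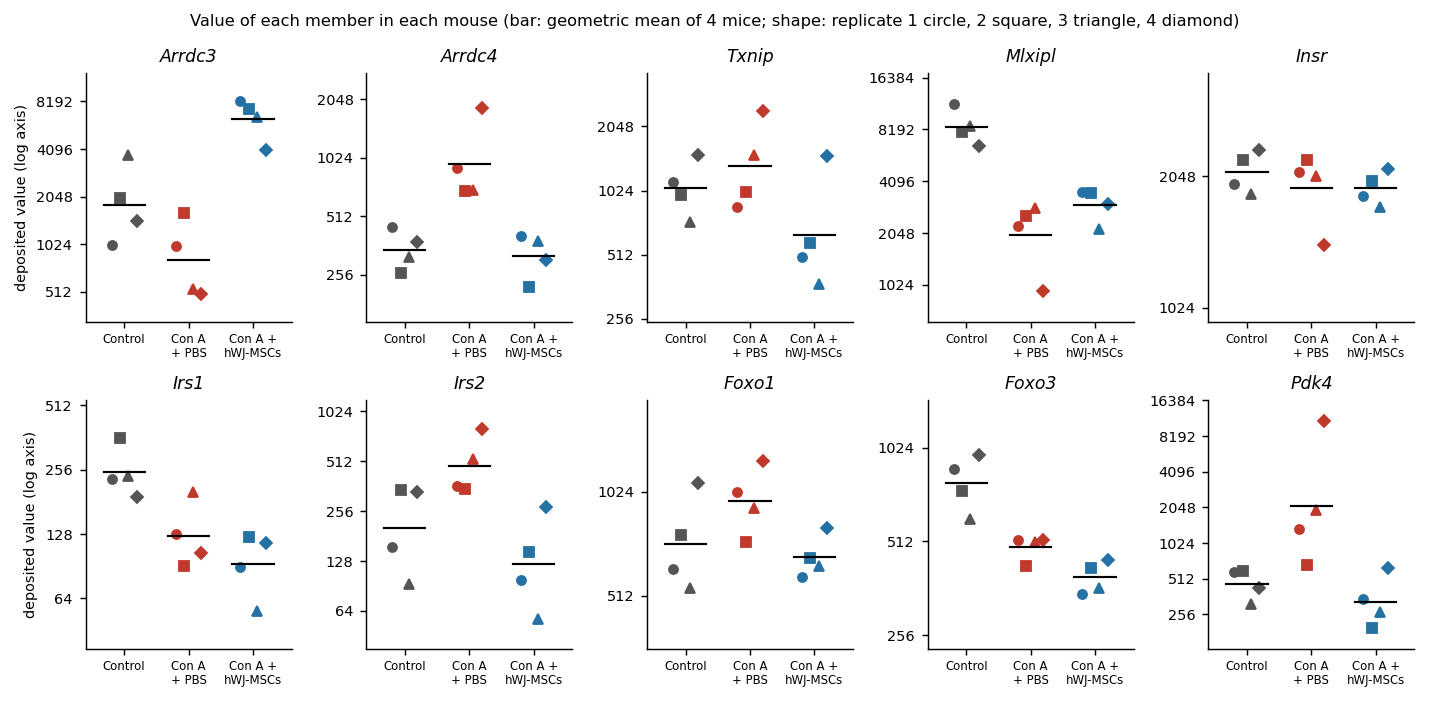
Deposited value, on a log axis, of each of the 10 genes in each of the 12 mice, with the group along the horizontal axis, point shape for the replicate number and a bar at the geometric mean of 4 mice. The 4 Con A + hWJ-MSCs mice lie above every other mouse for Arrdc3, from 4043 to 8246, and the Con A + PBS mice lie above every other mouse for Arrdc4 and Irs2.

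**Figure D2:**
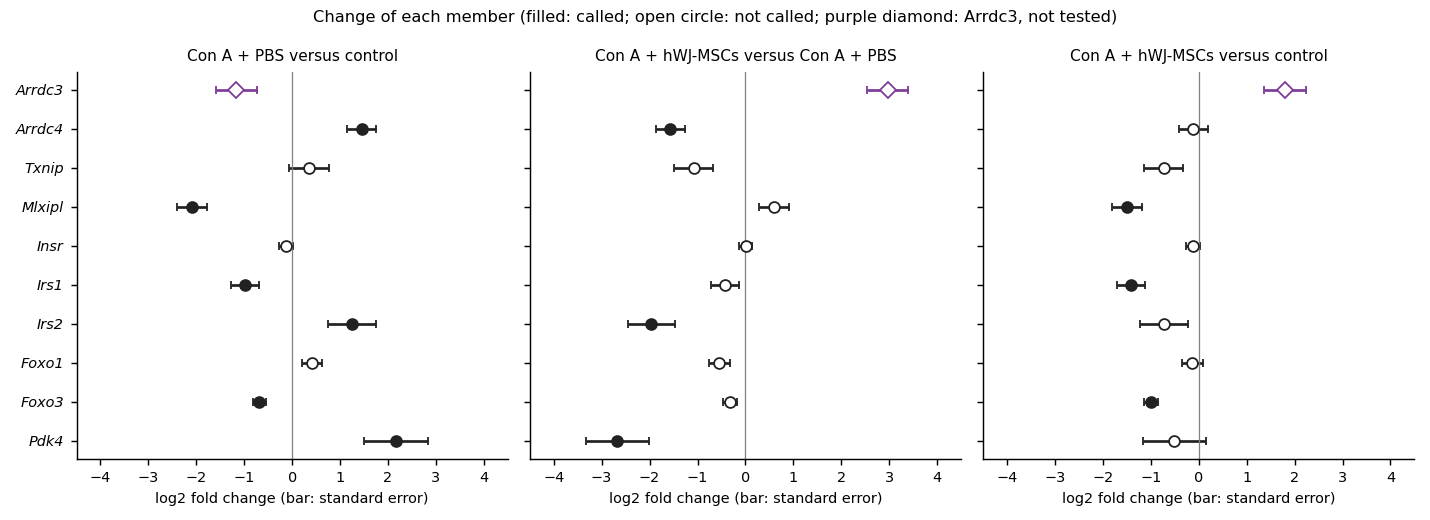
Log2 fold change of each gene in the 3 comparisons, with bars for the standard error. Filled points passed the test, open circles did not, and diamonds mark Arrdc3, which was not tested. Arrdc4, Irs2 and Pdk4 lie to the right after Con A and to the left with hWJ-MSCs, and Mlxipl, Irs1 and Foxo3 lie to the left in both comparisons with control.

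The alpha-arrestins are adaptor proteins that bring ubiquitin ligases to membrane proteins and help remove transporters and receptors from the cell surface. Arrdc3 (ENSMUSG00000074794, chr13:80883384-80889643, plus strand, mm10 as for all genes here), an alpha-arrestin that acts on receptors at the cell surface, was listed in the 4 control mice at 1012, 1992, 3750 and 1444. In the Con A + PBS mice it was listed at 1000, 1609, 531 and 496, and in the Con A + hWJ-MSCs mice at 8246, 7354, 6544 and 4043. All 4 mice given hWJ-MSCs were above the highest mouse of both other groups, while the control and Con A + PBS groups overlapped. Its mean was 2049.5 ± 1202.5 (SD, n = 4) in controls, 909 ± 520 (SD, n = 4) after Con A and 6547 ± 1808 (SD, n = 4) with hWJ-MSCs. The log2 fold change with hWJ-MSCs was 2.97 ± 0.43 against Con A + PBS, a 7.83-fold difference that 3 genes of the table exceeded, and 1.80 ± 0.43 against control. These values chose the gene and were not tested.

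Arrdc4 (ENSMUSG00000042659, chr7:68737045-68749241, minus strand), which like Txnip restrains glucose uptake, was listed at 450, 262, 316 and 379 in controls. The Con A + PBS mice were at 904, 687, 696 and 1852, and with hWJ-MSCs at 404, 221, 380 and 305. The Con A + PBS mice stood above all 8 others, and the control and hWJ-MSCs mice covered nearly the same range. The gene rose by 1.45 ± 0.30 on the log2 scale after Con A (limma, Benjamini-Hochberg adjusted p = 0.00142) and fell by 1.57 ± 0.30 with hWJ-MSCs against Con A + PBS (limma, Benjamini-Hochberg adjusted p = 0.0198). Against control, the hWJ-MSCs group differed by −0.11 with a 95% interval of −0.76 to 0.54 (limma, Benjamini-Hochberg adjusted p = 0.794). The fall with hWJ-MSCs no longer passed without Con A + PBS replicate 1, hWJ-MSCs replicate 2 or hWJ-MSCs replicate 3, at adjusted p = 0.0696, 0.066 and 0.0557 by limma with Benjamini-Hochberg adjustment.

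Txnip (ENSMUSG00000038393, chr3:96557957-96561883, plus strand), which binds thioredoxin and pulls glucose transporters from the membrane, was listed at 1129, 978, 732 and 1506 in controls. It was listed at 859, 1013, 1506 and 2429 after Con A, and at 498, 578, 372 and 1486 with hWJ-MSCs. In the hWJ-MSCs group 3 of the 4 mice were below all 8 others, and replicate 4 was in the range of the other groups. The log2 fold change with hWJ-MSCs was −1.08 ± 0.41 against Con A + PBS (95% interval −1.97 to −0.19) and did not pass (limma, Benjamini-Hochberg adjusted p = 0.0878), and it passed at −1.49 without hWJ-MSCs replicate 4 (limma, Benjamini-Hochberg adjusted p = 0.0239). The change after Con A was 0.35 ± 0.41 (limma, Benjamini-Hochberg adjusted p = 0.494). In log2 ratio to its control mean, Arrdc3 over Arrdc4 averaged −2.62 ± 1.30 (SD, n = 4) after Con A and 1.91 ± 0.56 (SD, n = 4) with hWJ-MSCs. This ratio lay on opposite sides of the control mean in the 2 groups, a description that uses Arrdc3.

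The promoters of the 3 alpha-arrestins, which gave different patterns, are shown, each from 250 bases before to 50 bases after the RefSeq start site (RefSeq, GRCm38.p6). The windows are chr13:80883134-80883433 on the plus strand for Arrdc3, chr7:68749189-68749488 on the minus strand for Arrdc4 and chr3:96557707-96558006 on the plus strand for Txnip. Capitals mark every match to 4 short motifs searched on both strands. They are the E-box CACGTG, the FoxO motif TGTTTAC, the insulin response sequence TGTTTTG and a pair of CACGNG sites. The paired sites run in the same direction with 5 bases between them, and pairs in opposite directions were not searched.
Arrdc3: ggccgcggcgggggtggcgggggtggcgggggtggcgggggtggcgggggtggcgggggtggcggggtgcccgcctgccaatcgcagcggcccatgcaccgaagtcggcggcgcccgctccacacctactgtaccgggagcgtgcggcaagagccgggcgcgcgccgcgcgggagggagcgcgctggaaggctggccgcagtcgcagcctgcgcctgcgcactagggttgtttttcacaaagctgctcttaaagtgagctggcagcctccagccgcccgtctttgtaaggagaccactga
Arrdc4: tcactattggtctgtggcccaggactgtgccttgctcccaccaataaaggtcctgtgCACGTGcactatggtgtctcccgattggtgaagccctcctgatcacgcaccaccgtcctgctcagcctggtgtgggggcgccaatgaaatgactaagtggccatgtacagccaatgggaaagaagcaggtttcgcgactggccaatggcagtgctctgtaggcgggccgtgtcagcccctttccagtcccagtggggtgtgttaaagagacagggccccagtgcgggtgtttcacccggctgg
Txnip: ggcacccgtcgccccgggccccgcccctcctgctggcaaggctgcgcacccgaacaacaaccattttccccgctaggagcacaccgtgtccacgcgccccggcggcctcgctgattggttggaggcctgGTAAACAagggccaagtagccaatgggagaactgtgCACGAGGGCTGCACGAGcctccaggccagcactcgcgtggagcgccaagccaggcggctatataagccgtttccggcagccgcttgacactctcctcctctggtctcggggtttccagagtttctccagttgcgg
Txnip held the paired CACGNG sites, starting 85 bases before its start, an arrangement that 0.0487% of 32851 RefSeq windows of this length hold, and a FoxO motif on the minus strand 121 bases before the start, which 3.65% hold. Arrdc4 held an E-box 193 bases before its start, which 7.15% of windows hold. Arrdc3 held no match to the 4 motifs in this window. A match is a description of letters and not evidence of binding.

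**Figure D3:**
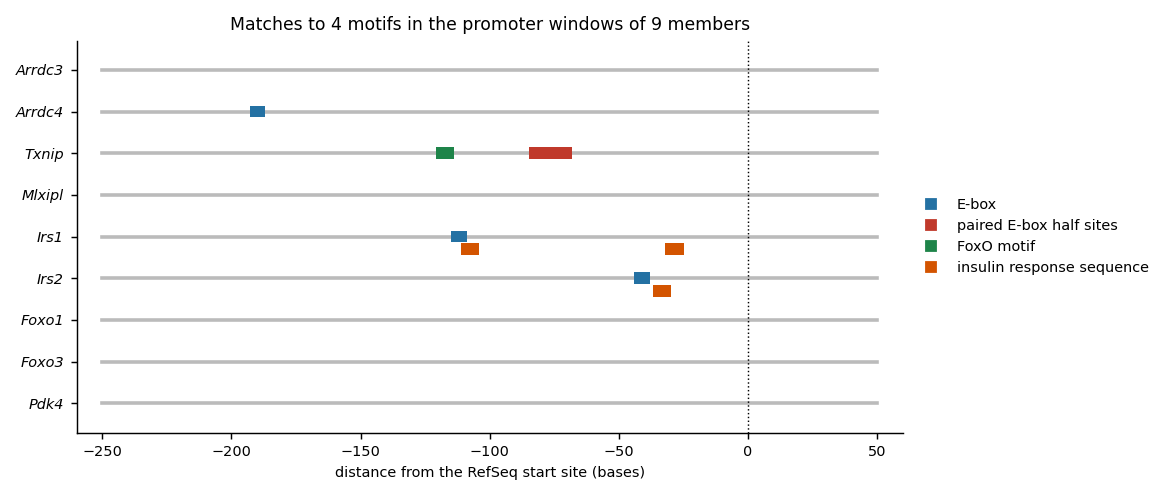
Matches to the 4 motifs in the promoter windows of the 9 genes with a RefSeq window, drawn by distance in bases from the start site. Txnip, Arrdc4, Irs1 and Irs2 hold matches, and the windows of Arrdc3, Mlxipl, Foxo1, Foxo3 and Pdk4 hold none.

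Of 13 other genes of the alpha-arrestin and thioredoxin list, 3 rose and 2 fell after Con A, and 2 fell with hWJ-MSCs against Con A + PBS. Against control, 3 were higher and 1 lower with hWJ-MSCs. The shares called were 38.5%, 15.4% and 30.8% in the 3 comparisons, and over all genes they were 38.8%, 8.58% and 26.7%. Slc2a1, the glucose transporter GLUT1 that the alpha-arrestins act on, was at 192 ± 38.2 (SD, n = 4) in controls, 1304 ± 653 (SD, n = 4) after Con A and 433 ± 140 (SD, n = 4) with hWJ-MSCs. It rose by 2.65 ± 0.31 on the log2 scale after Con A and fell by 1.51 ± 0.31 with hWJ-MSCs (limma, Benjamini-Hochberg adjusted p = 2.45e-05 and 0.0223). Slc2a1 was still above control with hWJ-MSCs, by 1.14 ± 0.31 (limma, Benjamini-Hochberg adjusted p = 0.0115).

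Mlxipl (ENSMUSG00000005373, chr5:135106891-135123042, plus strand), which encodes ChREBP, was listed at 11574, 7936, 8520 and 6521 in controls. It was listed at 2260, 2574, 2859 and 940 after Con A and at 3534, 3486, 2160 and 3040 with hWJ-MSCs. All 8 mice given Con A were below every control, and the 2 Con A groups overlapped. Mlxipl fell by 2.09 ± 0.31 on the log2 scale after Con A and fell by 1.49 ± 0.31 between hWJ-MSCs and control (limma, Benjamini-Hochberg adjusted p = 1.41e-04 and 0.00251). Between the Con A groups the difference was 0.59 ± 0.31 (95% interval −0.08 to 1.27; limma, Benjamini-Hochberg adjusted p = 0.195).

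Of the other genes of the ChREBP and MondoA list, 18 of 23 fell and 1 rose after Con A, with a median log2 fold change of −1.56. With hWJ-MSCs against control 18 of 23 fell and none rose, with a median of −1.81, and against Con A + PBS 3 rose and none fell, with a median of −0.25. The list's called shares were 82.6% after Con A, 78.3% with hWJ-MSCs against control and 13% between the Con A groups, where 38.8%, 26.7% and 8.58% of all genes were called. Pnpla3, a lipid droplet protein of hepatocytes, was at 1154 ± 576 (SD, n = 4), 33.5 ± 22.1 (SD, n = 4) and 21.2 ± 10.6 (SD, n = 4) in controls, after Con A and with hWJ-MSCs. It fell by 5.13 ± 0.57 on the log2 scale after Con A (limma, Benjamini-Hochberg adjusted p = 1.64e-05). Thrsp, a regulator of fat synthesis, fell by 4.67 ± 0.56 (limma, Benjamini-Hochberg adjusted p = 2.7e-05), and its hWJ-MSCs group was 0.04 from the Con A + PBS group (limma, Benjamini-Hochberg adjusted p = 0.972). The 3 genes that rose with hWJ-MSCs were Gckr, the inhibitor of glucokinase, Slc2a2, the hepatocyte glucose transporter GLUT2, and Angptl8, a circulating regulator of lipoprotein lipase that the table lists as Gm6484. Slc2a2 was at 3280 ± 715 (SD, n = 4), 344 ± 177 (SD, n = 4) and 956 ± 329 (SD, n = 4) in the 3 groups, and it fell by 3.36 ± 0.33 after Con A and rose by 1.55 ± 0.33 with hWJ-MSCs (limma, Benjamini-Hochberg adjusted p = 5.81e-06 and 0.0225). Angptl8 rose by 1.88 ± 0.49 with hWJ-MSCs (limma, Benjamini-Hochberg adjusted p = 0.0328), its change after Con A, −1.21 ± 0.49, just missing the test (limma, Benjamini-Hochberg adjusted p = 0.0503). The mean log2 value of hepatocyte markers was lower in the 8 mice given Con A than in controls, as given above, and their part in these falls was not tested.

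Of the 9 other partners in the Mlx network, the transcription factors that bind E-boxes with Mlx or Max, 3 rose and 1 fell after Con A and 3 fell with hWJ-MSCs, and against control 1 was higher with hWJ-MSCs. The shares called, 44.4%, 33.3% and 11.1%, stand beside 38.8%, 8.58% and 26.7% of all genes. Myc, which binds E-boxes as a dimer with Max, rose by 3.15 ± 0.50 after Con A and fell by 2.25 ± 0.50 with hWJ-MSCs (limma, Benjamini-Hochberg adjusted p = 2.32e-04 and 0.0252). Mxd1, a repressor that also pairs with Max, rose by 2.17 ± 0.25 and fell by 1.25 ± 0.25 (limma, Benjamini-Hochberg adjusted p = 2.3e-05 and 0.0218).

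**Figure D4:**
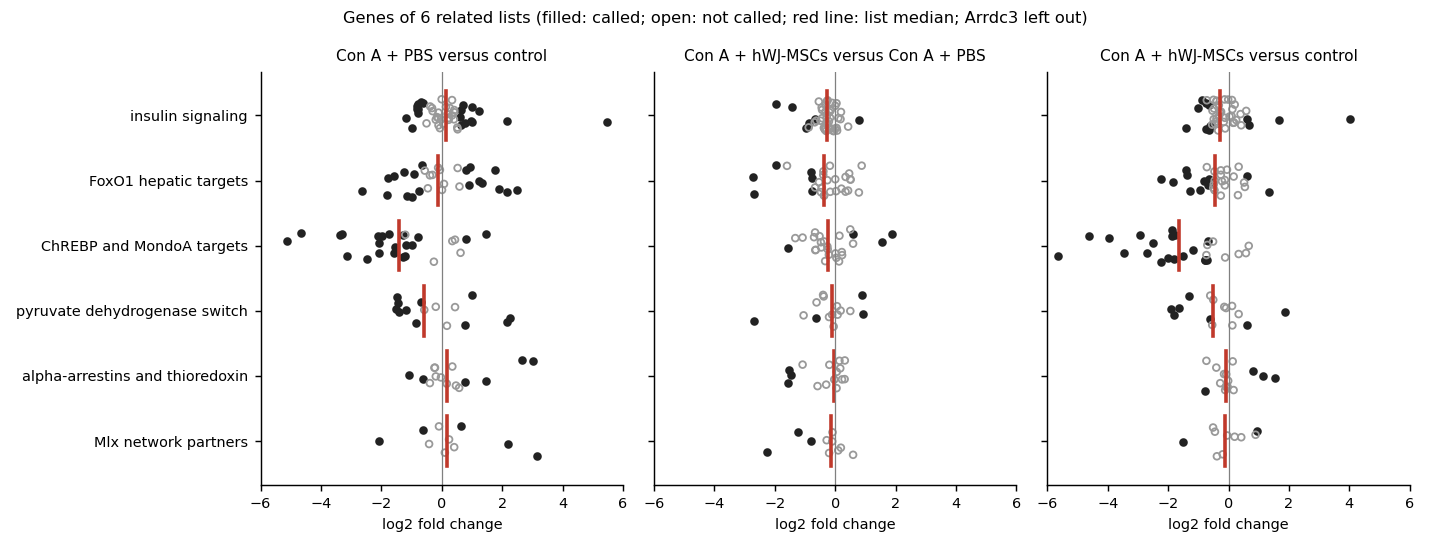
Log2 fold change of the genes of 6 lists (the tested genes included, Arrdc3 left out) in the 3 comparisons, with filled points called, open points not called and a red line at the list median. In the ChREBP and MondoA row most points lie left of 0 in both comparisons with control and near 0 between the Con A groups.

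Insr (ENSMUSG00000005534, chr8:3150922-3279617, minus strand), the insulin receptor, was listed from 1861 to 2350 in controls, from 1428 to 2229 after Con A and from 1742 to 2133 with hWJ-MSCs. The 3 groups overlapped and no comparison passed, with a log2 fold change of −0.12 after Con A (95% interval −0.43 to 0.19; limma, Benjamini-Hochberg adjusted p = 0.484) and a difference of 0.00 between the Con A groups (95% interval −0.31 to 0.31; limma, Benjamini-Hochberg adjusted p = 0.998). RefSeq holds no promoter window for it in the table used.

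The adaptors of the receptor moved in opposite directions after Con A. Irs1 (ENSMUSG00000055980, chr1:82233101-82291416, minus strand) was listed at 231, 361, 240 and 191 in controls, at 128, 91, 202 and 104 after Con A and at 90, 124, 56 and 116 with hWJ-MSCs. Only Con A + PBS replicate 3 reached the control range. Irs1 fell by 0.99 ± 0.29 on the log2 scale after Con A and fell by 1.42 ± 0.29 between hWJ-MSCs and control (limma, Benjamini-Hochberg adjusted p = 0.0126 and 0.00237). Irs2 (ENSMUSG00000038894, chr8:10986980-11008458, minus strand), the adaptor that fasting raises in liver, was listed at 156, 343, 93 and 332 in controls, at 360, 348, 527 and 795 after Con A and at 98, 146, 57 and 272 with hWJ-MSCs. The Con A + PBS mice were above all others, the closest controls just below them. Irs2 rose by 1.24 ± 0.50 after Con A (limma, Benjamini-Hochberg adjusted p = 0.0488) and fell by 1.96 ± 0.50 with hWJ-MSCs (limma, Benjamini-Hochberg adjusted p = 0.0316). The rise was lost in 7 of 12 fits that left out 1 mouse, those without control replicates 1 or 3, Con A + PBS replicates 1, 3 or 4 and hWJ-MSCs replicates 1 or 2, at adjusted p from 0.0548 to 0.147 by limma with Benjamini-Hochberg adjustment. The fall was lost in 6 of 12, those without Con A + PBS replicates 1, 3 or 4 and hWJ-MSCs replicates 1, 2 or 3, at adjusted p from 0.059 to 0.0828 by limma with Benjamini-Hochberg adjustment. The log2 ratio of Irs2 to Irs1, relative to the control mean, ran from −1.06 to 1.09 in controls, from 1.68 to 3.22 after Con A and from 0.33 to 1.52 with hWJ-MSCs, so that the Con A + PBS mice stood above both other groups.

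The promoters of these 2 adaptors are shown because they moved apart while sharing motifs. The windows (RefSeq, GRCm38.p6) are chr1:82291390-82291689 for Irs1 and chr8:11008880-11009179 for Irs2, both on the minus strand, and capitals mark matches to the same 4 motifs.
Irs1: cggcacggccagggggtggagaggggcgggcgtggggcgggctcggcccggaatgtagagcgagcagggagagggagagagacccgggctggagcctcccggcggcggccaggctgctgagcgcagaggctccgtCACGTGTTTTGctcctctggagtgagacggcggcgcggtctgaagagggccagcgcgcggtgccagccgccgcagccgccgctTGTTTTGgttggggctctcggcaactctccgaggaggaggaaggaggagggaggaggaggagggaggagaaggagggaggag
Irs2: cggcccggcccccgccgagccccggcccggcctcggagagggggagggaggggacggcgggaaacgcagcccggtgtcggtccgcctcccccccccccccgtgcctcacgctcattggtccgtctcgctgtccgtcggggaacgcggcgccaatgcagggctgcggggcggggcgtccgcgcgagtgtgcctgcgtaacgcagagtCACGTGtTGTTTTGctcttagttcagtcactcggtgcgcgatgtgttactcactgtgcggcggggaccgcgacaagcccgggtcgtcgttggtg
Irs1 held an E-box 115 bases before its start that overlaps an insulin response sequence at 111, and a second insulin response sequence at 32. Irs2 held an E-box 44 and an insulin response sequence 37 bases before its RefSeq start, which lies 471 bases from the start of the transcript in the table. The insulin response sequence occurs in 6.28% of all windows.

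Of the 40 other genes of insulin signaling in the table, 10 rose and 7 fell after Con A, and 1 rose and 4 fell with hWJ-MSCs against Con A + PBS. With hWJ-MSCs against control, 4 rose and 6 fell. In the 3 comparisons 42.5%, 12.5% and 25% of the list were called, near the 38.8%, 8.58% and 26.7% of all genes. Socs1, which blocks cytokine receptors and binds the insulin receptor, was at 12.2 ± 5.12 (SD, n = 4) in controls, 568 ± 160 (SD, n = 4) after Con A and 209 ± 60.8 (SD, n = 4) with hWJ-MSCs. It rose by 5.46 ± 0.30 after Con A and fell by 1.44 ± 0.30 with hWJ-MSCs (limma, Benjamini-Hochberg adjusted p = 1.02e-07 and 0.0224). Socs3, a close relative, rose by 2.15 ± 0.35 after Con A (limma, Benjamini-Hochberg adjusted p = 2.78e-04) and differed by −0.49 with hWJ-MSCs (limma, Benjamini-Hochberg adjusted p = 0.345). Sgk1, a kinase near Akt in the pathway, fell by 0.98 ± 0.19 with hWJ-MSCs (limma, Benjamini-Hochberg adjusted p = 0.0208).

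Foxo1 (ENSMUSG00000044167, chr3:52268337-52350109, plus strand) was listed at 610, 769, 540 and 1084 in controls, at 1021, 730, 921 and 1255 after Con A and at 580, 656, 625 and 804 with hWJ-MSCs. The groups overlapped. The log2 fold change was 0.41 ± 0.21 after Con A (95% interval −0.05 to 0.88; limma, Benjamini-Hochberg adjusted p = 0.119), passing without control replicate 4 at 0.61, and −0.54 ± 0.21 with hWJ-MSCs against Con A + PBS (95% interval −1.01 to −0.08; limma, Benjamini-Hochberg adjusted p = 0.0962), passing without Con A + PBS replicate 2 at −0.68. Foxo3 (ENSMUSG00000048756, chr10:42181841-42276752, minus strand) was listed at 878, 745, 606 and 970 in controls, at 517, 426, 509 and 516 after Con A and at 348, 422, 363 and 446 with hWJ-MSCs. Every mouse given Con A was below every control. Foxo3 fell by 0.68 ± 0.15 after Con A, a 1.60-fold change that was −0.58 on the log2 scale and under the fold threshold without control replicate 4, and fell by 1.00 ± 0.15 between hWJ-MSCs and control (limma, Benjamini-Hochberg adjusted p = 0.00174 and 2.28e-04). The log2 ratio of Foxo1 to Foxo3 relative to the control mean ran from −0.40 to 0.28 in controls, from 0.90 to 1.40 after Con A and from 0.76 to 0.97 with hWJ-MSCs.

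Of the 26 other FoxO1 targets, 7 rose and 10 fell after Con A, with a median log2 fold change of −0.35, and none rose and 4 fell with hWJ-MSCs against Con A + PBS. With hWJ-MSCs against control, 2 rose and 9 fell. Of the FoxO1 targets 65.4%, 15.4% and 42.3% were called in the 3 comparisons, beside 38.8%, 8.58% and 26.7% of all genes, whose median after Con A was 0.05. Igfbp1, the insulin-repressed IGF-binding protein, was listed at 4190, 2181, 656 and 3914 in controls, at 13937, 4374, 13212 and 29668 after Con A and at 3265, 720, 1417 and 3859 with hWJ-MSCs. It rose by 2.50 ± 0.70 after Con A and fell by 2.71 ± 0.70 with hWJ-MSCs (limma, Benjamini-Hochberg adjusted p = 0.00928 and 0.0327). Trib1, a pseudokinase, rose by 1.34 ± 0.22 and fell by 0.80 ± 0.22 in the same comparisons (limma, Benjamini-Hochberg adjusted p = 2.4e-04 and 0.0365). Cat, encoding catalase, fell by 2.63 ± 0.33 after Con A (limma, Benjamini-Hochberg adjusted p = 3.7e-05), all 4 controls being tied at 58393, so that their spread is not known. Other targets of the list did not follow Igfbp1. G6pc, Klf15 and Ppargc1a fell by 1.57 ± 0.24, 1.78 ± 0.25 and 0.67 ± 0.14 after Con A (limma, Benjamini-Hochberg adjusted p = 1.88e-04, 9.9e-05 and 0.00151). Pck1 differed by −0.57 ± 0.29 and did not pass (limma, Benjamini-Hochberg adjusted p = 0.115). None of these passed between the Con A groups.

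Pdk4 (ENSMUSG00000019577, chr6:5483351-5496309, minus strand) shuts off pyruvate dehydrogenase in fasting and is a FoxO1 target. It was listed at 584, 593, 315 and 426 in controls, at 1336, 667, 1939 and 10968 after Con A and at 344, 198, 266 and 628 with hWJ-MSCs. The Con A + PBS mice were above all others, with replicate 4 far above the rest. Pdk4 rose by 2.17 ± 0.66 after Con A and fell by 2.67 ± 0.66 with hWJ-MSCs (limma, Benjamini-Hochberg adjusted p = 0.0144 and 0.0296). Without Con A + PBS replicate 4 the values were 1.37 ± 0.41 and −1.87 ± 0.41 (limma, Benjamini-Hochberg adjusted p = 0.0142 and 0.0383). The fall was lost in 5 of 12 fits that left out 1 mouse, those without Con A + PBS replicates 1 or 3 and hWJ-MSCs replicates 1, 2 or 3, at adjusted p from 0.0532 to 0.0908 by limma with Benjamini-Hochberg adjustment.

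Of the 14 other genes of the pyruvate dehydrogenase switch, 3 rose and 7 fell after Con A, and 2 rose and 1 fell with hWJ-MSCs against Con A + PBS. With hWJ-MSCs against control, 2 rose and 5 fell. The called shares were 71.4%, 21.4% and 50%, beside 38.8%, 8.58% and 26.7% of all genes. The pyruvate dehydrogenase kinases moved in both directions. Pdk3 rose by 2.27 ± 0.20 (limma, Benjamini-Hochberg adjusted p = 2.69e-06), from 25.2 ± 5.25 (SD, n = 4) in controls to 124 ± 14.1 (SD, n = 4) after Con A. Pdk2, at 1718 ± 228 (SD, n = 4) in controls, fell by 1.53 ± 0.28 after Con A to 639 ± 248 (SD, n = 4), and rose by 0.93 ± 0.28 with hWJ-MSCs to 1126 ± 116 (SD, n = 4) (limma, Benjamini-Hochberg adjusted p = 5.37e-04 and 0.0467). Mpc2, a subunit of the mitochondrial pyruvate carrier, fell by 1.42 ± 0.18 and rose by 0.89 ± 0.18 (limma, Benjamini-Hochberg adjusted p = 4.14e-05 and 0.0218).

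**Figure D5:**
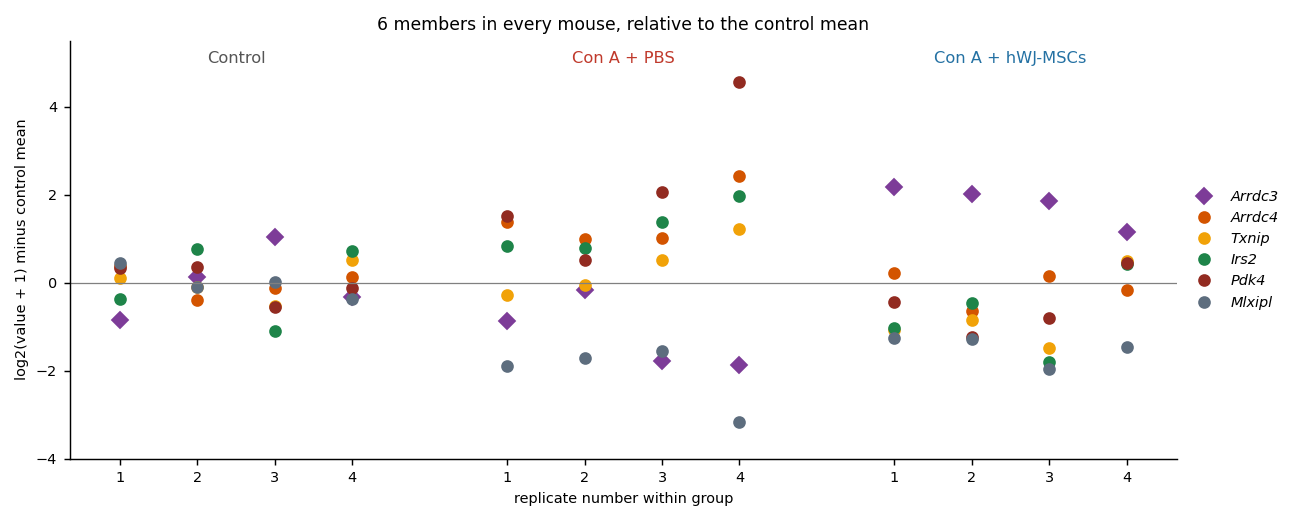
Log2(value + 1) minus the control mean for 6 genes in each mouse, by replicate number within group. Arrdc3 lies above 0 in the 4 hWJ-MSCs mice and Mlxipl below 0 in all 8 mice given Con A, and Pdk4 is highest in Con A + PBS replicate 4.

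By the root mean square difference of log2 values over the 12 mice, each gene centred on its mean, genes near to Arrdc3 were Angptl8 (0.737), Pcp4l1 (0.833), Gnat2 (0.862) and Avpr1a (0.933), against a spread of Arrdc3 around its own mean of 1.37. Avpr1a encodes the vasopressin receptor of liver. Of the other 9 genes here, Insr was nearest to Arrdc3, at 1.37, a distance equal to that spread. Irs2 was nearest to Txnip (0.563) and Pdk4 to Arrdc4 (0.848). These distances are descriptions over mice that share groups.

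The calls between the Con A groups, those of the pathway genes included, changed in number when 1 mouse was left out. Without Con A + PBS replicate 1, hWJ-MSCs replicate 2 or hWJ-MSCs replicate 3, the genes called in the whole table went from 969 to 7, 18 and 7. The count was 285 without Con A + PBS replicate 4, 506 without hWJ-MSCs replicate 1, 563 without Con A + PBS replicate 3 and 1575 without Con A + PBS replicate 2, and over the 12 fits it ran from 7 to 1575.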

How the data were processed

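Liver RNA of 12 mice, 4 per group, was studied, and groups and replicate numbers were taken from the sample labels. Libraries were poly-A selected and read as 150 bp paired ends. The submitters' processing notes name mm10, Bowtie2 2.2.1 and RSEM 1.2.18, and the paper names DESeq2. Whether strand was used in counting is not given in the sources used here. The deposited values are scores, whole numbers that the authors had normalized between mice before deposit, so no count test was run. Every gene in the table reaches 64 in at least 2 mice. The same largest value, 341028, is held by 10 genes in each mouse.

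limma 3.58.1 (R 4.3.3, lmFit and eBayes with a trend) was run on log2(score + 1), all 12 mice in 1 model without covariates. Genes passed at a fold change over 1.5 together with a p, adjusted by Benjamini and Hochberg's method, below 0.05. The script was tested on simulated data. Tables and plots used Python 3.11.15, pandas 2.3.3, numpy 2.4.6 and matplotlib 3.10.9. Promoter windows were found for 9 of the 10 genes.

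The genes, the lists and the tests were chosen with earlier results of these data known. Besides the 10 genes, the text names in each list the 2 genes with the largest change among those called after Con A and among those called between the Con A groups, and the 5 genes most like Arrdc3. Some genes that meet this rule are left out of the text. Gckr, G6pc, Klf15, Ppargc1a and Pck1, which the text names beside these, were named after their values were seen. As alternatives, each mouse was left out in turn, the replicate number served as a block, the p was left unadjusted, the fold threshold was set to 2, the fit took the 8 mice of a comparison alone, eBayes had no trend, values were quantile normalized or centred on the median, genes of mean score under 100 were dropped, and the pseudocount was 10.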

Additional observations from a re-analysis of the deposited data

Results flagged for a closer look

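Within each group of 4 mice, the gap of the most extreme mouse to its neighbour was divided by the range of the group. This was done on the deposited values and on the log2 scale. On either scale 2 of 30 groups stood out, where chance gives about 1.5 on a single scale, so the counts are not alike. Foxo3 in the Con A + PBS group was lowest in replicate 2, at 426 against 509 to 517 in the others, a ratio of 0.912 on the deposited values and 0.919 on the log2 scale. Pdk4 in the Con A + PBS group was highest in replicate 4, at 10968 against 667 to 1939 in the others, a ratio of 0.877 on the deposited values, and on the log2 scale it did not stand out.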

How the results depend on the processing

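The number of the 9 tested genes called stayed within 1.5 times its value in the 7 alternatives that left out no single mouse and could move the values or the call, 1 of which fitted only the 8 mice compared and called 2 in place of 3 between the Con A groups. Median centring and quantile normalization left the values almost as they were, since the scores were already equalized. No called fold change changed sign, while uncalled ones near 0 did when 1 mouse was left out, for Insr after Con A and between the Con A groups and for Arrdc4 and Foxo1 between hWJ-MSCs and control. Leaving out 1 mouse gave 5 to 6 called genes after Con A, 0 to 4 between the Con A groups and 3 to 4 between hWJ-MSCs and control. The count between the Con A groups was 0 by limma without Con A + PBS replicate 1, hWJ-MSCs replicate 2 or hWJ-MSCs replicate 3, with 4 at an unadjusted p below 0.05 and a fold change above 1.5 each time, and 1 without Con A + PBS replicate 3 or hWJ-MSCs replicate 1. Irs2 after Con A was lost with eBayes without a trend, Pdk4 between the Con A groups with only the 8 mice compared, and Irs1 and Foxo3 after Con A at a fold change above 2. Txnip between the Con A groups was called at an unadjusted p with the same fold threshold.

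When replicate number was the block, 6, 4 and 4 of the 9 genes were called in the 3 comparisons, Txnip being added in the last 2. Same-numbered mice deviated with correlations from −0.118 to 0.375, so the numbers were not taken to pair the mice.

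Over the whole table, a fold change above 2 called 2391, 353 and 1539 genes against 4379, 969 and 3015, and the unadjusted p, with the 1.5-fold threshold kept, called 1697 against 969 between the Con A groups. The depth behind the scores is unknown, so counting error could not be given.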

Other observations

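Within the groups, 4 of the 9 other genes stood at the opposite end from Arrdc3, a pattern noticed after the values were seen and not tested. Control replicate 3 had the highest Arrdc3 of the controls, at 3750, and the lowest Txnip, Irs2, Foxo1 and Pdk4, at 732, 93, 540 and 315. Con A + PBS replicate 4 had the lowest Arrdc3 of its group, at 496, and the highest of the same 4 genes, at 2429, 795, 1255 and 10968. Replicate 4 of the hWJ-MSCs group had the lowest Arrdc3 of its group, at 4043, and again the highest of these 4, at 1486, 272, 804 and 628. In the whole table, 2.68% of genes (302 of 11289) were lowest, highest and highest in these 3 mice.

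Igfbp1 was also lowest in control replicate 3, at 656, and highest in Con A + PBS replicate 4, at 29668, and in hWJ-MSCs replicate 4, at 3859. These mice also stood at the ends of their groups in summed cell markers. Con A + PBS replicate 4 was lowest of its group for hepatocyte (1011129), leukocyte (3617), neutrophil (828), T cell (114) and endothelial (1119) markers and highest for the sum of stellate markers (5912), though lowest in their mean log2 value (7.48). The hWJ-MSCs replicate 4 was lowest of its group for hepatocyte (1073203), leukocyte (2951), T cell (136), endothelial (1248) and stellate (3464) markers. Control replicate 3 was highest of its group for the sum of hepatocyte markers (1202931), though not for their mean log2 value (16.31 against 16.41 in replicate 4), and lowest for leukocyte (2451), macrophage and monocyte (4447) and endothelial (2309) markers. Their part in the pattern was not tested.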
